A study of Mus musculus with 12 samples.

Results

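The genes described here are the Hist cluster genes of the mouse, which encode the linker histone H1 and the core histones H2A, H2B, H3 and H4. They were measured by RNA sequencing of CD4+ cells sorted from the thymus. Members were chosen by symbol alone, as every gene of the deposited table whose symbol begins with Hist1h, Hist2h, Hist3h or Hist4h, and this gave 64 of 13207 genes. The family was put forward after its levels in these libraries were known, so its counts below describe these libraries and are not independent evidence. Of the 64 members, 6 encode H1, 17 encode H2A, 17 encode H2B, 11 encode H3 and 13 encode H4. Cluster 1 on chromosome 13 holds 52 of them, cluster 2 on chromosome 3 holds 9, cluster 3 on chromosome 11 holds 2, and Hist4h4 on chromosome 6 is the single member of cluster 4.

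All groups came from C57BL/6 mice injected with tamoxifen at 10 µg per g of body weight and taken 7 days later. In such mice tdTomato marks cells labelled at the time of the drug, and green fluorescent protein (GFP) marks regulatory T cells (Treg). Each of 4 groups had 3 libraries, named by the letters A, B and D of their titles. CD73+ and CD73– newly generated Treg were tdTomato+GFP+ cells divided by CD73, the surface nucleotidase encoded by Nt5e. Newly generated conventional T cells (Tconv) were tdTomato+GFP–CD73– cells. The last group, tdTomato–GFP+ Treg, was not divided by CD73 and is a bulk population. The labels name neither the driver of the Cre nor the number of animals behind a library. Where nothing says that libraries came from separate animals, p-values speak only of how much these libraries vary, and that variation may be technical.

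Most Hist genes are replication-dependent: they are transcribed in S phase, when newly copied DNA has to be packed into nucleosomes, and fall silent outside it. Their mRNAs have no introns and, unlike other mRNAs, mostly end in a short stem-loop in place of a poly(A) tail. The stem-loop is bound by the stem-loop binding protein Slbp, which acts in the processing, translation and decay of these mRNAs. Some members, Hist1h1c, Hist1h2bc and Hist2h2be among them, also make polyadenylated mRNA in cells that have stopped dividing. The variant genes outside the clusters, such as H3f3a, H3f3b and H2afz, are polyadenylated and expressed through the cell cycle. Whether the RNA was selected for poly(A) or depleted of ribosomal RNA is not given in the sources used here, and a poly(A) selection would take up only part of the stem-loop-ended mRNA.

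The stem-loop was looked for in the annotated transcripts of GENCODE M21 as a perfect stem of 6 pairs around a loop of 4 bases. The search also asked for GG at the start, CC at the end and T just before the loop. Such a stem-loop was found in 45 of 64 members. It had 8 forms, and they followed the histone type. All 33 stem-loops of H1, H2A, H2B and H3 genes began with GGCTC, while of the 12 in H4 genes 10 began with GGCCC and 2 with GGTCC. The GG of each was set by the search. These are shown because they are the sequence most of the family shares beyond its names, for genes described below, from the annotated transcript on its own strand, 5′ to 3′, with the stem-loop in capitals:
Hist1h1c: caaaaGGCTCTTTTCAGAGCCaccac
Hist1h2ab: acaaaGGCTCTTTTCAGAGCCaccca
Hist1h2bg: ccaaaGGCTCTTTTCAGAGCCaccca
Hist1h3c: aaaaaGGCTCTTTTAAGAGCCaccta
Hist1h3f: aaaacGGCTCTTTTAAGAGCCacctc
Hist1h4m: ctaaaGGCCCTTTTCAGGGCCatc
Hist1h4d: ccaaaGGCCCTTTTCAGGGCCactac
Hist1h4b: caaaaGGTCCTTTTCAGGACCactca
The commonest form, that of Hist1h1c, was present in 25 members, and that of Hist1h4m in 7, all of them H4 genes. Among transcripts of protein-coding genes other than the 64 members, 15 of 58729 held such a stem-loop in their last 100 bases, a share of 0.0255%. These other genes take in the coding Hist genes not analysed here and the variant histone genes. Which genes the 15 transcripts belong to was not listed. Members were counted by gene, each by its transcript that ends nearest to the stem-loop, so the shares are not counted alike. Their share was 35.9%, since only 23 of the 45 have an annotated end within 100 bases of the stem-loop. The annotated transcripts of 22 members run further. Those of 19 members hold no stem-loop of the form searched for, which says only that such letters are not in the annotated transcript.

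Promoter sequences from RefSeq (GRCm38.p6, the mm10 build of the files) could be matched by symbol, strand and a start within 100 bases to 57 of 64 members. CCAAT, the letters of the box bound by NF-Y, and TATAAA, the letters of a TATA box, were counted on both strands. Matches were taken at any position in the 300 bases from 250 before to 50 after the start. The motifs can overlap by 1 base. CCAAT was present in 84.2% of the member promoters and in 37.3% of 32793 other promoters. TATAAA was present in 56.1% and 13.5%, and both in 45.6% and 5.24%. By type, CCAAT was present in all 5 H1, all 16 H2A, all 15 H2B and all 9 H3 promoters that matched, and in 3 of 12 H4 promoters. Partners of a divergent pair share part of their windows, so these promoters are not all separate sequences. The 250 bases before the start are given for 4 genes that the comparisons turn on, an H4, an H3, an H2A and an H1 gene, with CCAAT and TATAAA of either strand in capitals:
Hist1h4m, chr13:21811496-21811745, plus strand: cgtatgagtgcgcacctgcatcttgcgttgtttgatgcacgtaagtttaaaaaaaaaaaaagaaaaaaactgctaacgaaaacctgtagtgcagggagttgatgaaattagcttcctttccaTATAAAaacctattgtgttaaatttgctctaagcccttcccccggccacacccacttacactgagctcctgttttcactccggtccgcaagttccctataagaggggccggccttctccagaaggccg
Hist2h3b, chr3:96268404-96268653, plus strand: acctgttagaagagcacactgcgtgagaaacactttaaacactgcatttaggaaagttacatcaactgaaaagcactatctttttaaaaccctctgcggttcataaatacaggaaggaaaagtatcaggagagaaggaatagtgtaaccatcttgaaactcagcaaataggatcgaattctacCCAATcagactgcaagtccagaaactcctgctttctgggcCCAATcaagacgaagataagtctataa
Hist1h2ab, chr13:23750838-23751087, plus strand: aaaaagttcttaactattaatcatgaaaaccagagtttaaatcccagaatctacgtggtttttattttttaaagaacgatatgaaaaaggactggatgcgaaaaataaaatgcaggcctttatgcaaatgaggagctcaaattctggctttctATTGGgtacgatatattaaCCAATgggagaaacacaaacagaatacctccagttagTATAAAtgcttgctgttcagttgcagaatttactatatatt
Hist1h1b, chr13:21780626-21780875, minus strand: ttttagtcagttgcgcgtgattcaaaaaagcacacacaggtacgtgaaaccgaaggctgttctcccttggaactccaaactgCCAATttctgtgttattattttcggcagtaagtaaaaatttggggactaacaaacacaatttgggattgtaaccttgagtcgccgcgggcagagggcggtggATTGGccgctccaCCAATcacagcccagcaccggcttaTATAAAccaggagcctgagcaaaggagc
The H4 promoter has TATAAA near the middle of the printed stretch and no CCAAT in this window. The H3 promoter has 2 CCAAT matches and no TATAAA, and the H2A and H1 promoters hold both motifs. A match is a description of the letters, not evidence of binding.

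The libraries had an effective depth of 11000000 to 21410000 counts, and levels are given as log2 CPM, the log2 of counts divided by that depth and scaled up to a fixed total. Where a gene had no count, up to 3 counts are allowed for, or -2.61 to -1.65 log2 CPM depending on the library. The limit takes in counting error alone. Foxp3, the lineage factor of Treg, was at a mean log2 CPM of 9.19 in CD73+ Treg, 9.16 in CD73– Treg, 9.11 in tdTomato– Treg and 0.18 in Tconv, and Nt5e was higher in CD73+ than in CD73– Treg with a log2 difference of 1.75 (SE 0.09; limma with Benjamini-Hochberg adjustment, adjusted p = 2.07e-08). Cd4 and Cd3e had mean log2 CPM between 8.42 and 9.28 in every group. A single gene, Lars2, took 22.9% to 28.8% of the summed CPM in CD73– Treg, 28.6% to 30.2% in CD73+ Treg, 30.8% to 32.4% in tdTomato– Treg and 16.1% to 27.4% in Tconv. Its share overlapped between CD73– and CD73+ Treg, and did not overlap between tdTomato– Treg and Tconv. The part of Lars2 in the Hist levels was not tested.

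Summed over the family, Hist genes were at their highest in Tconv and at their lowest in CD73– newly generated Treg. In CD73– Treg the summed level was 1215, 1192 and 1052 CPM in replicates A, B and D, and in CD73+ Treg it was 1456, 1389 and 1305 CPM. All 3 CD73+ libraries lay above all 3 CD73– libraries, with a ratio of 1.20 between the group means of log2 sums. In tdTomato– Treg the sum was 1422, 1406 and 1248 CPM, and in Tconv it was 2214, 1932 and 2235 CPM, so that the Tconv sum was 1.56 times higher and the groups did not overlap. In bulk libraries, fewer cells of a kind and less RNA per cell cannot be told apart. The authors filtered and scaled the Treg pair and the tdTomato– Treg and Tconv pair separately, so levels were tested only within a pair and are set across pairs as values alone. With that limit, Tconv had the highest group mean for 58 of the 63 members measured in all groups, CD73– Treg the lowest for 57, and both held for 54. The median member stood at percentiles 35.1 to 38.7 of all genes in the CD73– libraries, 39.7 to 41.7 in CD73+ Treg, 40.9 to 41.6 in tdTomato– Treg and 52.8 to 57.0 in Tconv.

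**Figure D1:**
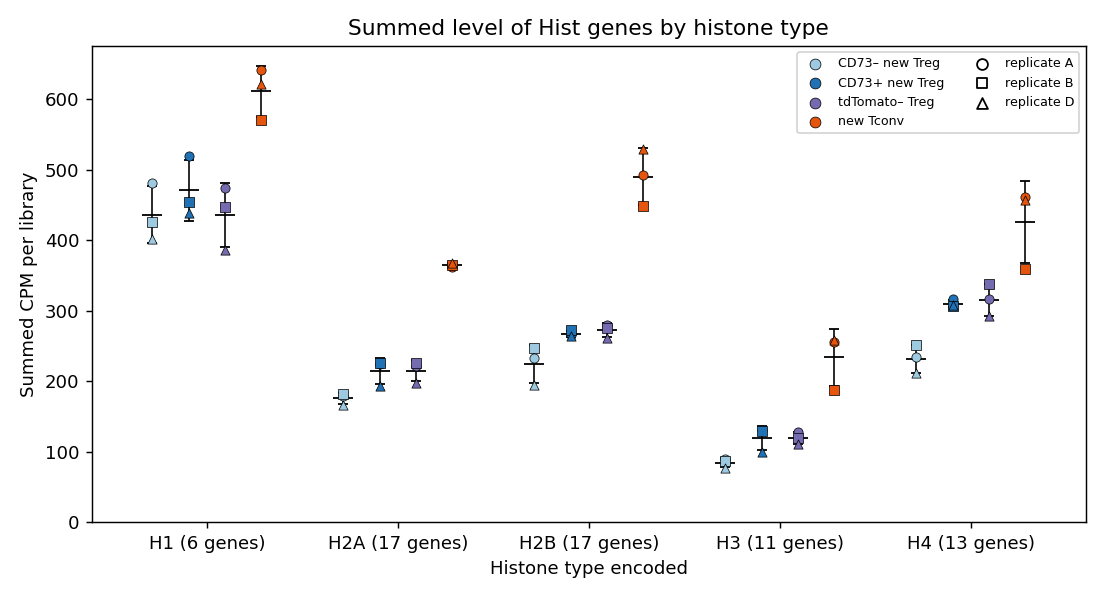
Summed CPM (y axis) of the Hist genes of each histone type (x axis) in each of 12 libraries; colours are the groups, symbols the replicate letters, bars the mean and SD of 3 libraries. Tconv sums lie above those of the other groups for every type. Among Tconv libraries, replicate B is the lowest for H1 (571 CPM), H2B (449 CPM), H3 (187 CPM) and H4 (359 CPM), but not for H2A. The Treg pair was scaled separately from the other pair.

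By type, the sums moved unequally. H3 sums were 84.7 ± 6.59 CPM (SD, n = 3) in CD73– Treg, 120 ± 17.0 in CD73+ Treg, 119 ± 8.77 in tdTomato– Treg and 234 ± 40.5 in Tconv. H4 sums were 232 ± 19.9, 310.3 ± 5.25, 316 ± 22.6 and 426 ± 57.7 CPM in the same order. The 3 CD73+ libraries lay above the 3 CD73– libraries for H2A (ratio 1.22), H2B (1.20), H3 (1.41) and H4 (1.34), while those of H1 overlapped (1.08). Within letters the H1 sum was higher in CD73+ Treg by 0.11, 0.10 and 0.13 (log2, A, B and D). Tconv lay above tdTomato– Treg for all 5 types, by 1.41 times for H1, 1.70 for H2A, 1.80 for H2B, 1.94 for H3 and 1.34 for H4. For H4 that difference was small within replicate B (log2 difference -0.09) beside replicates A (-0.54) and D (-0.65). Tconv replicate B was the lowest Tconv library for the H1, H2B, H3 and H4 sums, but not for H2A. Its Lars2 share was also the lowest (16.1%, against 26.7% and 27.4% in the other Tconv libraries) and its G2 and M phase sum the highest. The part of either in the Hist levels was not tested.

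Hist1h1c encodes H1.2, the most abundant of the linker histone mRNAs here and the highest of all members in each of the 12 libraries. Per kilobase of annotated exon it was the highest in 11 of them, the exception being Tconv replicate B, where Hist2h2aa2 was higher. Its log2 CPM was 8.24, 7.84 and 7.96 in CD73– Treg, 8.28, 7.96 and 8.04 in CD73+ Treg, 8.03, 7.90 and 7.69 in tdTomato– Treg and 8.24, 7.72 and 8.13 in Tconv. The groups overlapped in both comparisons, and neither fold change passed the threshold (limma, adjusted p = 0.80 and 0.32). Without Hist1h1c the family's summed difference was 0.32 between CD73+ and CD73– Treg and -0.73 between tdTomato– Treg and Tconv on the log2 scale, against 0.26 and -0.65 with it. Per kilobase of annotated exon, Hist1h1c had a mean log2 level of 7.39 in Tconv, Hist1h2bg 7.24, Hist2h2aa2 7.07, Hist1h4m 6.90 and Hist2h3b 5.53, each the highest of its type in that group.

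The first comparison asks how newly generated Treg that carry CD73 differ from those that do not. Of the 63 members tested, 7 were higher in CD73+ Treg and none was lower at an adjusted p under 0.05 (limma, Benjamini-Hochberg over all 11170 genes tested). Over all genes, 1.79% were higher and 0.654% lower. At an unadjusted p under 0.05, 27 members were higher and still none was lower, and the authors' deposited table has no lower member either. The share of all genes at that unadjusted threshold was not counted, so this and later unadjusted counts have no background beside them. The 7 were 4 H4 genes, 2 H3 genes and 1 H2A gene. Fold changes were positive for 60 members and negative for 3, with a median of 0.37 on the log2 scale, beside 0.01 over all genes. The groups did not overlap for 19 members, all higher in CD73+ Treg, beside 10% of all genes.

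The H4 gene Hist1h4m, on chromosome 13 from 21811746 to 21812147, had a log2 CPM of 4.38, 4.63 and 4.54 in CD73– Treg and of 5.28, 5.26 and 5.25 in CD73+ Treg. The groups were far apart and the CD73+ libraries nearly equal; the log2 fold change was 0.75 (SE 0.10, adjusted p = 0.0012). Of its 50-base windows 89.8% occur also in Hist1h4n, so reads of this pair of copies cannot be told apart with certainty. Hist1h4n itself had a log2 fold change of 0.16 and did not pass the threshold.

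Hist2h3b, an H3 gene of cluster 2 on chromosome 3 (96268654 to 96269141), was at 2.70, 2.56 and 2.76 in CD73– Treg and at 3.79, 3.64 and 3.75 log2 CPM in CD73+ Treg. Every CD73+ library lay above every CD73– library, by a log2 fold change of 1.05 (SE 0.15, adjusted p = 0.0014). Of its windows 79.7% occur in other genes. Both Hist1h4m and Hist2h3b kept the call in all 17 alternative analyses, which include those with a library left out. Hist1h2ab, an H2A gene (chromosome 13, 23751126 to 23751598), was at 2.29, 3.07 and 2.43 in CD73– Treg and at 3.60, 3.87 and 3.40 log2 CPM in CD73+ Treg. These groups did not overlap either, with CD73– replicate B the closest to the CD73+ libraries (1.03, SE 0.18, adjusted p = 0.0055), and the call was kept in 15 of 17 alternatives.

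The other 4 stood nearer the threshold. Hist1h4b (chromosome 13, 23757013 to 23757409) was at 2.14, 2.88 and 2.39 in CD73– Treg and at 3.37, 3.23 and 3.42 log2 CPM in CD73+ Treg, a log2 difference of 0.87 (SE 0.17, adjusted p = 0.015). Hist1h4f (chromosome 13, 23551258 to 23551648) was at 3.62, 3.82 and 3.26 against 4.22, 4.29 and 3.99 (0.60, SE 0.14, adjusted p = 0.037). For both, CD73– replicate B was again the highest of its group, and the groups did not overlap. Hist1h4d (chromosome 13, 23581598 to 23582735), the H4 gene with the highest mean level, was at 5.42, 5.37 and 5.13 against 5.78, 5.60 and 5.69 (0.38, SE 0.09, adjusted p = 0.029). Hist1h3f (chromosome 13, 23544052 to 23545312), the H3 gene with the highest mean level, was at 4.13, 4.18 and 4.05 against 4.75, 4.53 and 4.55 (0.49, SE 0.12, adjusted p = 0.049). Their groups did not overlap, yet the calls of these 4 genes were kept in only 10, 8, 10 and 5 of 17 alternatives, in the order given.

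The share of all genes called moved with the libraries left out, and so did the count of member calls. It was 4, 13 and 3 without CD73– replicate A, B or D, beside 1.18%, 2.36% and 0.995% of all genes higher. Without CD73+ replicate A, B or D it was 3, 5 and 6, beside 0.762%, 0.709% and 1.22%. Without all libraries of letter A, B or D it was 2, 13 and 2, beside 0.219%, 1.49% and 0.357%. No member was lower in any of them. With the letter as a replicate block, 13 members were higher (adjusted p under 0.05), beside 3.32% of all genes. The 6 added by the block were Hist1h2ag, Hist1h2bh, Hist1h2bj, Hist1h4c, Hist1h4h and Hist2h2aa2. In the authors' deposited table, by their own test, 4 members were higher, Hist1h4m, Hist2h3b, Hist1h2ab and Hist1h4c, beside 0.916% of all genes. Within a letter the median member difference was 0.36 for A, 0.26 for B and 0.42 for D.

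Among members that did not pass the threshold, Hist1h2bg, the H2B gene with the highest mean level, was at 5.84, 5.79 and 5.54 in CD73– Treg and at 5.86, 5.60 and 5.96 in CD73+ Treg, and the groups overlapped (0.08 on the log2 scale, SE 0.11, adjusted p = 0.75). Hist2h2aa2, the H2A gene with the highest mean level, was at 4.96, 4.89 and 4.83 against 5.41, 5.60 and 5.09, groups that did not overlap (0.47, SE 0.15, adjusted p = 0.10). All of its 50-base windows occur in Hist2h2aa1, whose log2 fold change was 0.04. The 5 tested H1 genes had log2 fold changes from 0.08 to 0.28, and no H1 group pair was free of overlap.

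**Figure D2:**
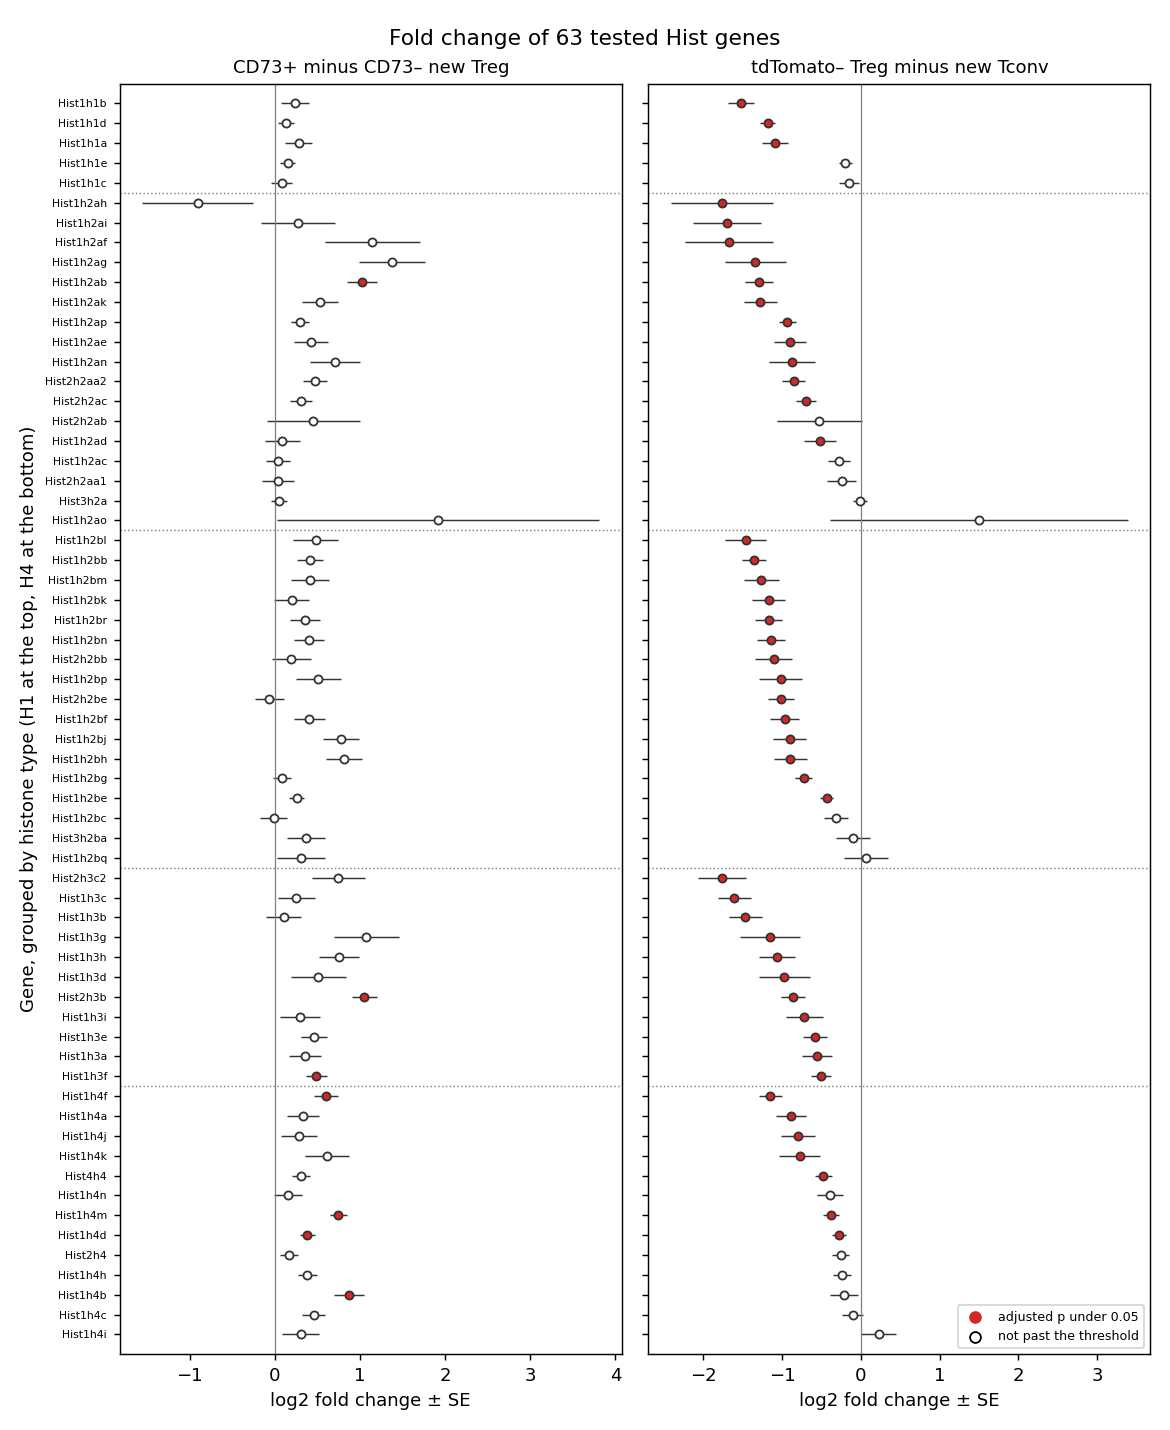
Log2 fold change with its SE (x axes) of the 63 tested Hist genes (y axis), grouped by histone type, for CD73+ minus CD73– newly generated Treg (left) and tdTomato– Treg minus Tconv (right); filled points have an adjusted p under 0.05. Filled points number 7 on the left, all positive, and 47 on the right, all negative; Hist1h2ao has a wide error in both.

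The second comparison sets tdTomato– Treg against newly generated Tconv. These groups differ in lineage, in the tdTomato label and in sorting by CD73, and the parts of these cannot be told apart. Here 47 of 63 members were lower in the Treg and none was higher (limma, adjusted p under 0.05), beside 25.7% of all 11198 genes tested lower and 26.4% higher. An unadjusted p under 0.05 gave 51 lower members and no higher one, again with no share of all genes counted. The authors' deposited table holds 47 lower members and no higher one, beside 23.9% of all genes lower and 26.7% higher. The median fold change was -0.88 on the log2 scale, beside -0.01 over all genes, and 60 members were negative and 3 positive. The groups did not overlap for 47 members with lower Treg values, beside 30.5% of all genes. A lone member, Hist1h4i, had non-overlapping groups with higher Treg values (2.67, 2.52 and 2.61 against 2.42, 2.28 and 2.42 log2 CPM) and did not pass the threshold (adjusted p = 0.42). It was chosen for mention after its values were seen. Without Tconv replicate D, 1 member, Hist1h2bq, was called higher.

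All 11 H3 genes were lower, with log2 fold changes from -1.76 to -0.51 and a median of -0.97. Of 17 H2B genes 14 were lower (median -1.01), and of 17 H2A genes 12 (median -0.88). Of 13 H4 genes 7 were lower, with a median of -0.38. H1 was divided: 3 of 5 tested genes were lower.

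The largest decreases by the rule were in H2A and H3 genes. Hist2h3c2, an H3 gene on chromosome 3 (96238108 to 96239127), was at 3.31, 3.32 and 2.84 in tdTomato– Treg and at 5.23, 4.42 and 5.11 log2 CPM in Tconv, a log2 fold change of -1.76 (SE 0.31, adjusted p = 0.00014). Hist1h3c (chromosome 13, 23744973 to 23745602) was at 3.35, 3.04 and 2.89 against 4.76, 4.40 and 4.94, a log2 fold change of -1.61 (SE 0.21, adjusted p = 8.76e-06). In both, each Treg library lay below each Tconv library. In CD73– and CD73+ Treg, measured on the other scale, Hist2h3c2 was at 2.19, 2.80 and 2.04 and at 3.49, 3.57 and 2.21, and Hist1h3c at 2.82, 2.85 and 2.49 and at 3.20, 3.32 and 2.40.

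Hist1h2ai (chromosome 13, 21716422 to 21716814) was at 1.52, 1.94 and 2.25 in tdTomato– Treg and at 3.31, 3.74 and 3.76 in Tconv (-1.70 on the log2 scale, SE 0.43, adjusted p = 0.0035). Hist1h2af (chromosome 13, 23533906 to 23534304) was at 1.71, 1.93 and 1.93 against 3.36, 3.81 and 3.43 (-1.68, SE 0.56, adjusted p = 0.018). Neither pair of groups overlapped, though both genes scattered widely in CD73– Treg, at 3.16, 0.58 and 1.47 for Hist1h2ai and 1.27, 1.62 and -1.62 for Hist1h2af. Hist1h2ah (chromosome 13, 22035164 to 22035568) was at 1.10, -1.21 and -0.54 against 1.82, 2.56 and 0.26; its groups overlapped and its call (-1.76, SE 0.65, adjusted p = 0.031) was lost without Tconv replicate A (adjusted p = 0.087), Tconv replicate B (0.16), tdTomato– Treg replicate B (0.15) or tdTomato– Treg replicate D (0.091), without letter B (0.36) and in the authors' deposited table (0.052). Its adjusted p ranged from 0.0054 to 0.36 in 17 alternatives, and its fold change from -2.42 to -0.76 with libraries or a letter left out. Of the windows of these 3 genes, 79.7% to 90.7% occur in other genes, among them Hist1h2ad.

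The 7 genes called between the Treg pair can be followed into this comparison. Hist1h2ab was at 3.56, 3.75 and 3.59 in tdTomato– Treg and at 5.01, 4.73 and 5.06 in Tconv (-1.30, SE 0.18, adjusted p = 1.13e-05). Hist1h4f was at 4.15, 4.44 and 4.31 against 5.57, 5.20 and 5.58 (-1.15, SE 0.14, adjusted p = 3.8e-06), and Hist2h3b at 3.59, 3.75 and 3.55 against 4.79, 4.10 and 4.58 (-0.86, SE 0.15, adjusted p = 0.00014). Smaller decreases were those of Hist1h3f (4.66, 4.49 and 4.52 against 5.19, 4.71 and 5.29, adjusted p = 0.0027), Hist1h4m (5.10, 5.31 and 5.21 against 5.79, 5.34 and 5.63, adjusted p = 0.0051) and Hist1h4d (5.70, 5.86 and 5.57 against 6.00, 5.99 and 5.97, adjusted p = 0.013). Hist1h4b overlapped, at 3.47, 3.51 and 3.23 against 3.80, 3.66 and 3.40, and did not pass the threshold (-0.22, SE 0.17, adjusted p = 0.32). Of the 7, 6 were thus also called lower here, beside 47 of the 63 tested members (74.6%).

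The linker histones bind the DNA that enters and leaves the nucleosome. Hist1h1b, which encodes H1.5, was at 4.03, 4.26 and 3.86 in tdTomato– Treg and at 5.52, 5.65 and 5.56 in Tconv, a log2 difference of -1.53 (SE 0.16, adjusted p = 5.92e-07). Hist1h1a, which encodes H1.1, was at 4.31, 4.12 and 4.41 against 5.25, 5.44 and 5.43 (-1.09, SE 0.16, adjusted p = 2.78e-05), and Hist1h1d, which encodes H1.3, at 6.11, 5.98 and 5.78 against 7.08, 7.24 and 7.10 (-1.18, SE 0.10, adjusted p = 1.9e-08). The Treg values of all 3 lay below the Tconv values. Hist1h1e, which encodes H1.4, was at 6.75, 6.76 and 6.48 against 6.90, 6.85 and 6.83, a smaller difference that did not pass the threshold (-0.20, SE 0.09, adjusted p = 0.070). Hist1h1t, the testis-specific H1, was measured only in this pair, at -1.31, -3.37 and -2.69 in Treg and -2.81, -2.61 and -3.58 in Tconv, near or below the limit of 3 counts, and was not tested.

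The highest H2A and H2B genes were lower as well. Hist1h2bg was at 5.82, 5.83 and 5.83 in tdTomato– Treg and at 6.53, 6.34 and 6.78 in Tconv (-0.72, SE 0.11, adjusted p = 2.85e-05), and Hist2h2aa2 at 5.24, 5.54 and 5.10 against 5.99, 6.50 and 5.95 (-0.85, SE 0.15, adjusted p = 0.00011). The neighbouring copy Hist2h2aa1 was at 5.10, 4.77 and 4.55 against 5.47, 4.46 and 5.23 and did not pass the threshold (adjusted p = 0.29). In Tconv replicate B, Hist2h2aa2 was the highest and Hist2h2aa1 the lowest of the 3 libraries. Hist1h2ao, which shares 93.5% of its windows with Hist1h2ap, was without a count in 1 or 2 libraries of every group, and its fold changes (1.92 and 1.497, SE 1.89 in both) are not interpreted.

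**Figure D3:**
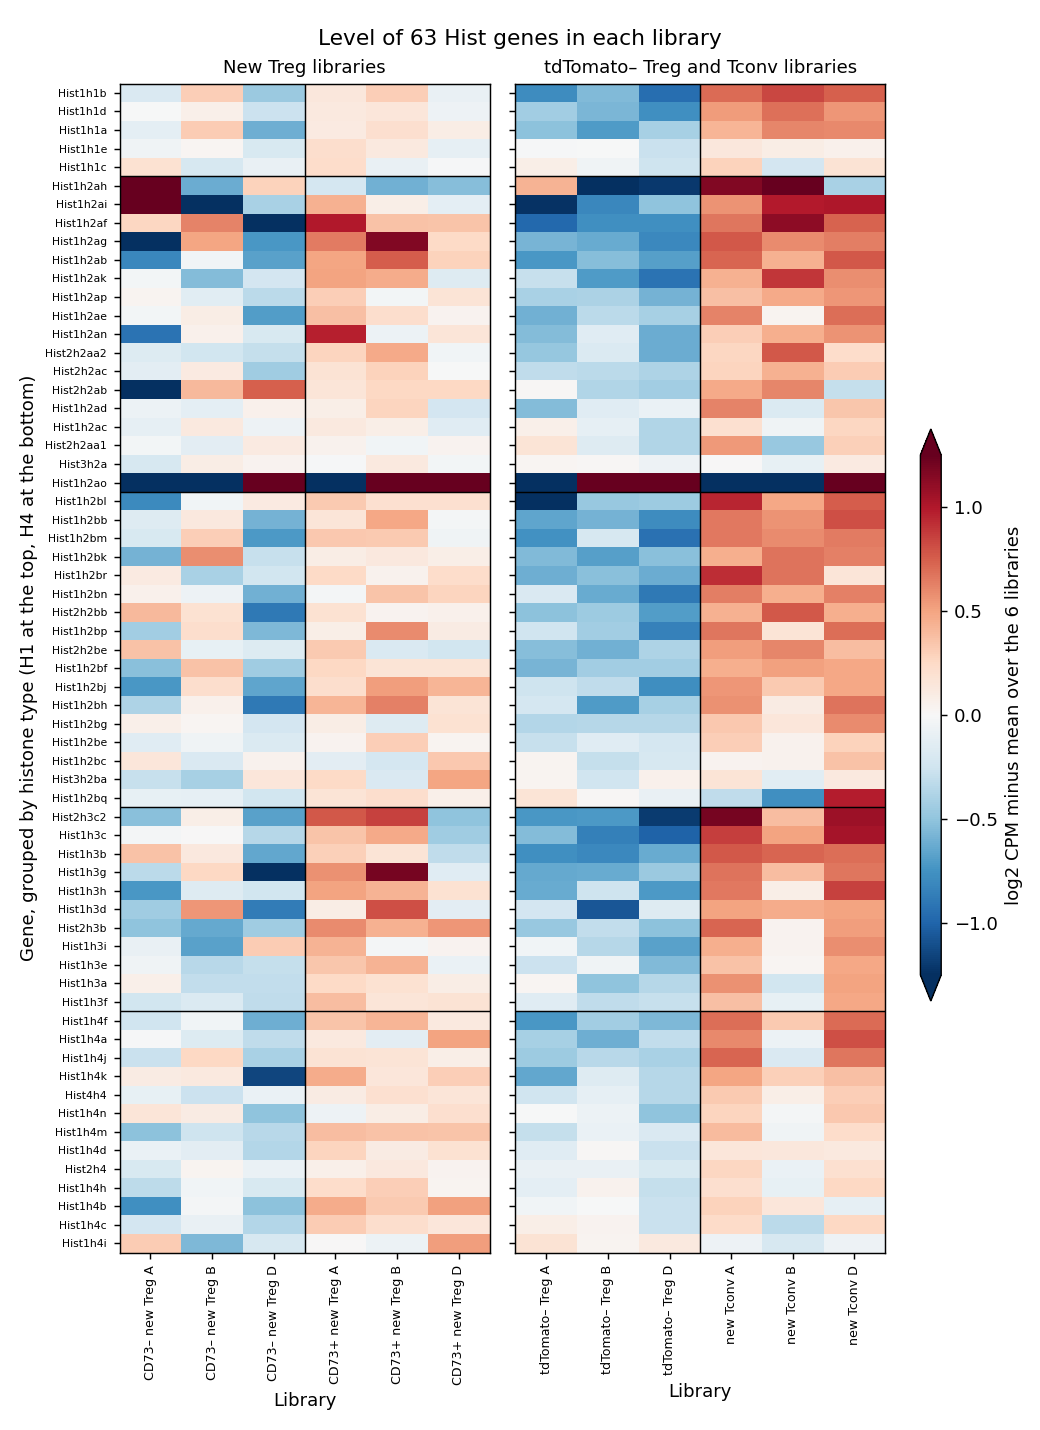
Log2 CPM of 63 Hist genes (y axis) in each library (x axis) minus the gene's mean over the 6 libraries of its pair, for the newly generated Treg (left) and for tdTomato– Treg and Tconv (right); horizontal lines divide the histone types and the colour scale ends at the values of its bar. Most rows are higher in Tconv than in tdTomato– Treg, and rows of H2A genes such as Hist1h2ah and Hist1h2ao vary most between libraries of a group.

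Sharing of sequence was counted over the family, since reads that fit several copies are divided between them. Over 50-base windows of the annotated exons, 8 members had under 10% of their windows in any other gene: Hist1h1a, Hist1h1b, Hist1h1c, Hist1h1d, Hist1h1t, Hist2h2be, Hist2h4 and Hist4h4. Of the 7 of these that were tested, 5 were lower in tdTomato– Treg than in Tconv (median -1.01) and none was called between CD73+ and CD73– Treg (median 0.17). Of the 56 members with 10% or more, 42 were lower in the former comparison (median -0.87) and 7 higher in the latter (median 0.40).

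Along chromosome 13 the genes of cluster 1 lie in 3 blocks. In the block from 21715763 to 21837530, 15 of 18 members were lower in tdTomato– Treg than in Tconv (median -0.98); in that from 22035164 to 22043676, 4 of 5 (median -1.17); and in that from 23531050 to 23764406, 21 of 28 tested (median -0.81). Cluster 2 on chromosome 3 had 6 of 9 lower (median -0.85). The 2 genes of cluster 3, Hist3h2a and Hist3h2ba, which lie outside the main arrays, did not pass the threshold (-0.01 and -0.10), and Hist3h2a overlaps Trim17. In 12 pairs, members were transcribed away from each other from starts 176 to 660 bases apart, mostly an H2A with an H2B gene. In 10 of these both partners were lower in tdTomato– Treg, and in 2, Hist1h2ac with Hist1h2bc and Hist1h2bq with Hist1h2ao, neither was.

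By their annotated 3′ end, 18 of 23 members that end within 100 bases of the stem-loop were lower in tdTomato– Treg (median -0.93), 13 of 21 tested members that run further (median -0.48), and 16 of 19 without one in the annotation (median -1.09). Between the newly generated Treg groups these classes had 4, 2 and 1 higher members, with medians of 0.41, 0.31 and 0.36. Of the 3 members named above as also polyadenylated, which is not a full list, only Hist2h2be was lower in tdTomato– Treg. None of the 3 was called in the Treg pair. In tdTomato– Treg against Tconv, Hist1h1c and Hist1h2bc had log2 fold changes of -0.16 and -0.32.

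Replication-independent histone genes lie outside the clusters. Of 9 tested, 3 were lower in tdTomato– Treg than in Tconv and 2 higher, beside 25.7% lower and 26.4% higher among all genes tested. The genes of H3.3 were lower, H3f3a by a log2 fold change of -0.62 (SE 0.05, adjusted p = 2.05e-08) and H3f3b by -0.42 (SE 0.05, adjusted p = 2.04e-06). So was H2afx, whose mRNA is made in both stem-loop and polyadenylated forms (-0.86, adjusted p = 0.0012). H2afz, which encodes H2A.Z, was higher (0.84, SE 0.09, adjusted p = 3.93e-07), as was H1f0, the linker histone of resting cells (0.51, SE 0.16, adjusted p = 0.013). Between CD73+ and CD73– Treg none of the 9 was called; at an unadjusted p under 0.05, 5 were higher and 1 lower.

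The machinery that makes and carries histones was counted from lists of general knowledge. Among all genes tested, 25.7% were lower and 26.4% higher in tdTomato– Treg than in Tconv. In CD73+ against CD73– Treg, 1.79% were higher and 0.654% lower. Of 20 tested genes of histone mRNA transcription and processing, 11 were lower in tdTomato– Treg and 2 higher (median -0.22); Ncbp1, a subunit of the cap-binding complex, was at -0.50 and Cstf2t, a cleavage stimulation factor, at -0.44 among the lower, while Pou2f1, the octamer-binding factor Oct-1 that acts at H2B promoters (0.57), and Sympk, the scaffold symplekin (0.17), were higher. Slbp itself had a log2 fold change of -0.09 (adjusted p = 0.44), and Npat, the coactivator of histone gene transcription, of -0.16 (adjusted p = 0.053). Of 23 histone chaperone genes, 17 were lower and none higher (median -0.31), among them Ubn1 of the HIRA complex (-0.46) and Chaf1b of chromatin assembly factor 1 (-1.28). In the Treg pair no gene of either list was called, with medians of -0.08 and 0.05; at an unadjusted p under 0.05, 4 of the processing genes were lower and 5 of the chaperone genes higher.

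Cell cycle genes were summed beside the Hist genes. The summed level of 31 S phase genes was 551, 605 and 497 CPM in CD73– Treg, 622, 673 and 595 in CD73+ Treg, 652, 661 and 650 in tdTomato– Treg and 916, 996 and 937 in Tconv. That of 22 G2 and M phase genes was 127, 222 and 115 CPM, 183, 254 and 163, 241, 223 and 260.3, and 586, 755 and 688 in the same order. Between tdTomato– Treg and Tconv neither sum overlapped, while between the Treg pair both did, CD73– replicate B being the highest of its group. Within each letter CD73+ Treg was the higher of the pair for both lists, by 0.18, 0.15 and 0.26 for S phase and 0.53, 0.19 and 0.503 for G2 and M phase (log2, A, B and D). In tdTomato– Treg 23 of 31 S phase genes were lower than in Tconv (median -0.56), including Mcm2 (-0.87) and Mcm7 (-0.56) of the replicative helicase, and 1, the thymidine kinase Tk1, was higher (1.42). Of 22 G2 and M phase genes 21 were lower (median -1.42), including the topoisomerase Top2a (-1.98) and the spindle protein Nusap1 (-1.97). Over all genes tested 25.7% were lower and 26.4% higher there, and between the Treg pair 1.79% were higher and 0.654% lower. In CD73+ against CD73– Treg a single gene of each list was higher, Tk1 (0.78, adjusted p = 0.014) and Ube2c, an enzyme of mitotic exit (1.68, adjusted p = 0.034), none was lower, and the medians were 0.24 and 0.30. The share of dividing cells in these sorts was not measured, and its part in the Hist levels was not tested.

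**Figure D4:**
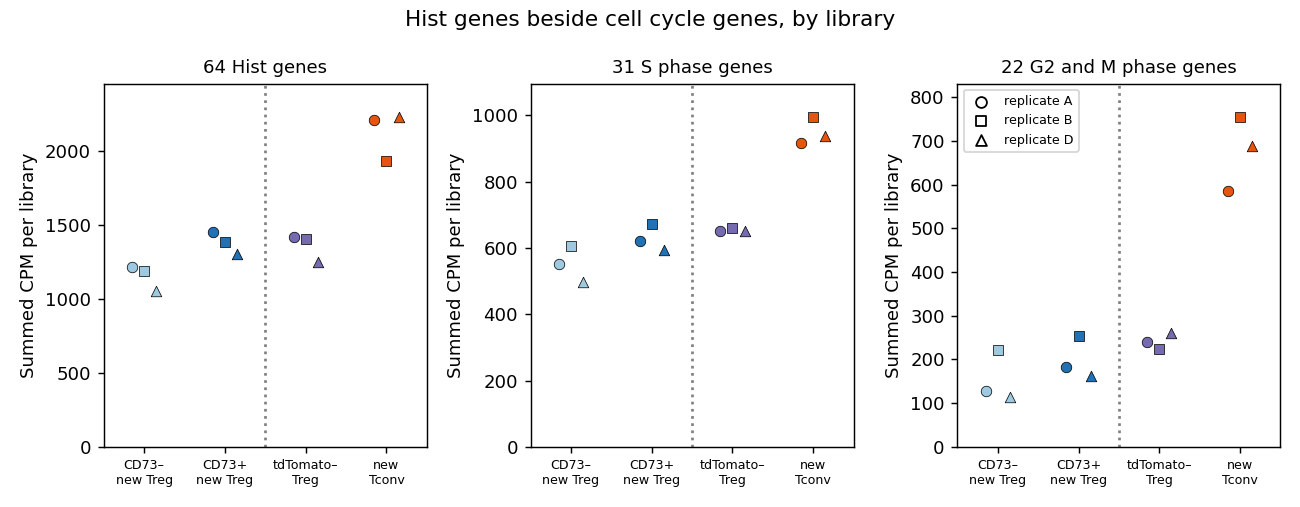
Summed CPM (y axes) of the 64 Hist genes, 31 S phase genes and 22 G2 and M phase genes in each library, by group (x axes); symbols are the replicate letters and the dotted line divides the pairs of groups scaled separately. Tconv libraries are the highest in all 3 panels, and CD73– replicate B is the highest CD73– library for both cell cycle lists.

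Markers of other cells were summed in the same way. Those of double-positive thymocytes were at 65.4, 127 and 59.0 CPM in CD73– Treg, with replicate B again apart, at 50.1 to 55.9 CPM in CD73+ Treg, at 71.6 to 87.3 CPM in tdTomato– Treg and at 71.7 to 86.2 CPM in Tconv. Of their 8 tested genes, Aqp11 was lower in CD73+ than in CD73– Treg (-1.003, adjusted p = 0.033); all 8 fold changes were negative (median -0.62), 4 of them at an unadjusted p under 0.05. Over all genes tested, 0.654% were lower in CD73+ Treg. In the other comparison 3 of the 8 were higher and 2 lower in tdTomato– Treg than in Tconv. Over all genes tested 26.4% were higher and 25.7% lower there, shares that stand beside each marker count of that comparison. B cell markers summed to 3.73 to 10.7 CPM over all libraries and those of myeloid and dendritic cells to 34.1 to 84.2 CPM, both with the highest values in tdTomato– Treg, where 1 of 2 and 5 of 8 tested genes were higher than in Tconv. Erythroid markers summed to 67.2 to 144 CPM, with 2 of 5 higher in tdTomato– Treg. The part of such cells in the Hist levels was not tested.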

How the data were processed

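Per the labels' protocols, RNA was taken up in TRIzol and sequenced from KAPA RNA HyperPrep libraries. STAR, RSEM, limma and the mm10 build stand in the submitters' processing notes; their versions are not given in the sources used here. Log2 CPM were deposited per gene and library in 2 separately filtered and scaled tables of 6 libraries; the offset of 0.5 count and the depth were read from the lowest values. Of values worth 1 to 7 counts, 93.8% to 95.9% per library, but only 7 of 11 from Hist genes, lay within 0.05 of a whole count; 2 decimals do not allow counts to be recovered above that, so no count test was run. The authors' log2 fold changes and adjusted p-values were also deposited, and all sample columns of the deposited table were used.

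The deposited log2 values of all 12 libraries entered a single limma 3.58.1 fit (R 4.3.3) with 4 group means, no block and an intensity trend. Genes had to reach a log2 CPM of 0 in 3 or more libraries, which 63 of 64 Hist genes passed; tests were two-sided. On simulated data the script was tested for recovery of known changes. Members and lists were chosen with earlier results of these data known. Values are given for every member called in CD73+ against CD73– Treg, the 5 highest and 5 lowest called in tdTomato– Treg against Tconv (none was higher), the highest of each type, any member in 1 table only, and up to 2 genes per list and direction; other members named (the remaining H1 genes, Hist2h2aa1, Hist1h2ao, Hist1h2bc, Hist1h2bq, Hist1h4i, Hist1h4n, the cluster 3 genes, Slbp, Npat) were chosen after their values were seen.

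Whether letters pair libraries was checked by the correlation of deviations from group means. Over the 11167 genes tested in both tables, same-letter libraries of the newly generated Treg correlated at 0.110 (A), 0.082 (B) and 0.058 (D). Over 9942 genes that reach a log2 CPM of 0 in all 12 libraries, a set used in an earlier analysis, these were 0.146, 0.266 and 0.222, all above 0.1. By a limit of 0.1 the verdict thus depends on the gene set. Different-letter libraries of the newly generated Treg correlated at -0.081 to 0.003 over the first set and at -0.228 to 0.008 over the second. Every same-letter value was above these in both sets. The main fit has no block, and the result with the block is given beside the count it moves. For tdTomato– Treg and Tconv, replicate D was below 0.1 in both sets (0.068 and 0.054).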

Additional observations from a re-analysis of the deposited data

How the results depend on the processing

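In the comparison of tdTomato– Treg with Tconv, the count of lower Hist genes was 47, and between 36 and 52 under every alternative run: no filter, a stricter filter, only the groups compared, the replicate block, quantile normalisation, median centring, log2(CPM + 1), the authors' deposited table, and libraries left out singly or by letter. The share of all genes called lower ranged from 19% to 31.7% over these alternatives. Of the 47 calls, 31 were kept in all 17 alternatives. The count of higher members ranged from 0 to 1 with libraries left out. Between CD73+ and CD73– Treg, the count of 7 higher members was 13 with the replicate block and 4 in the authors' deposited table, and ranged from 3 to 13 with a library left out and from 2 to 13 with a letter left out. Over these the median fold change ranged from 0.26 to 0.45. The share of all genes called higher ranged from 0.219% to 3.32% over all alternatives. No member was lower under any of these alternatives. The replicate block gave 49 lower members in the other comparison. With libraries or a letter left out, 15 of 63 members changed sign in the Treg pair and 4 of 63 in the other, none of them called; negative members in the Treg pair numbered 3 in the reported analysis, 6 without CD73– replicate B or D, 6 without letter A or B and 7 without letter D. Of the genes named by the rule, Hist1h1c was lowest without CD73+ replicate A (-0.0133) and Hist1h2bg without CD73– replicate D (-0.0083) or letter D (-0.085), and their highest values were 0.19 and 0.22. The cause was not tested. Quantile normalisation moved the split of all called genes in tdTomato– Treg against Tconv to 22.4% higher and 31.7% lower, from 26.4% and 25.7%.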

Other observations

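Copies of nearly identical sequence, an unstated RNA selection and annotated transcripts of uneven length limit what the level of a single Hist gene means. The annotated spans of Hist1h2be and Hist1h1e overlap on the same strand. Of 70 Hist genes in GENCODE M21, 6 were not analysed here, among them the coding genes Hist1h2aa, Hist1h2ba and Hist2h3c1. CD73– Treg was not tested against Tconv because the pairs of groups were scaled separately.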
